A study of Mus musculus with 19 samples.

Results

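The complement system was followed here through 9 of its genes in whole mouse ovaries of 4 ages: C1qa, C1qb, C1qc, C2, C4b, Cfb, C3, C3ar1 and C5ar1. The members were the rows of the deposited table of estimated counts whose symbol is one of these names. Each name matched 1 of the 36172 rows, and all 9 passed the filter on low counts that left 15518 genes to test. The series measured RNA of ovaries from female C57BL/6 mice, an inbred laboratory strain, at 3, 6, 9 and 12 months of age, with 5, 5, 5 and 4 libraries. All 19 libraries share strain, sex and tissue, no treatment is given, and the ages are the only contrast. The labels do not say that each library is a separate mouse. The p-values therefore weigh each age difference against the spread between these libraries, which may in part be technical.

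Complement is a cascade of plasma proteins and cell receptors that marks cells, debris and immune complexes for removal. C1q, built from the chains encoded by C1qa, C1qb and C1qc, starts the classical pathway by binding its target, and tissue macrophages are a known source of it. C4 and C2 form the classical convertase, factor B forms the alternative one, and both cleave C3, whose fragment C3a acts through C3ar1, while C5a, released further down the cascade, acts through C5ar1. The liver is the main source of the plasma proteins, and many other tissues also transcribe them.

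The genes lie in groups on the genome (mm10, RefSeq GRCm38.p6 coordinates, all on the minus strand). C1qb (NCBI gene ID 12260), at chr4:136880126-136886200, C1qc (12262), at chr4:136889801-136892936, and C1qa (12259), at chr4:136895916-136898844, follow one another within 18719 bases. On chromosome 17, Cfb (14962) at chr17:34856374-34862514 ends 87 bases before C2 (12263) begins at chr17:34862602-34882100. C4b (12268) at chr17:34728139-34743902 is in the same region, and C3 (12266) is further along at chr17:57203967-57228136. C3ar1 (12267) is at chr6:122847140-122856157 and C5ar1 (12273) at chr7:16246743-16259540. C4b has a near-identical copy, C4a, listed at 0.151 to 1.08 CPM (counts scaled to library size) in these libraries, and the counting could have split reads between them, so C4b values carry that uncertainty.

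Promoter sequences of 5 of the 9 members were given by RefSeq (GRCm38.p6, 250 bases before to 50 after the start). The promoters of the neighbouring C1qb and C1qc and of C3 are shown because these genes moved together or furthest with age. Capitals mark GAGGAA, the core bound by ETS factors such as PU.1 (on either strand), in the C1q promoters, and TTGCNNAA, a C/EBP sequence, in that of C3.
C1qb promoter, chr4:136886151-136886450, minus strand: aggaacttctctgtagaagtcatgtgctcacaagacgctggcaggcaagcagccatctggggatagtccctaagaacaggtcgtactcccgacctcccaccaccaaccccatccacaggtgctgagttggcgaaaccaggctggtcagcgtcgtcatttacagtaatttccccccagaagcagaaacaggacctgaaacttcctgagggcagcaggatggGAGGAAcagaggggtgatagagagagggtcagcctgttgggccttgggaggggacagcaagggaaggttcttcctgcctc
C1qc promoter, chr4:136892865-136893164, minus strand: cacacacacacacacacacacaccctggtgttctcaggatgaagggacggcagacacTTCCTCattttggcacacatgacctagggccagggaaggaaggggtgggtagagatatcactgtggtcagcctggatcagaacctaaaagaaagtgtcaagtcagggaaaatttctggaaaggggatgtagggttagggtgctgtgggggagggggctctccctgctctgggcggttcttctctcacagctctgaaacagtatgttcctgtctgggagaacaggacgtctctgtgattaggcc
C3 promoter, chr17:57228087-57228386, minus strand: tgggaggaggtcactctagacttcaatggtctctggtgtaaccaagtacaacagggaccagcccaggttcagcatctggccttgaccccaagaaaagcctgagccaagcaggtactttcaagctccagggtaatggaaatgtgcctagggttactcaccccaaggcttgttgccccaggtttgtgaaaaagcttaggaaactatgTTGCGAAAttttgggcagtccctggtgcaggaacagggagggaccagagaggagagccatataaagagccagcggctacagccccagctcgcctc
In C1qb the GAGGAA begins 30 bases before the start, and in C1qc its complement TTCCTC begins 193 bases before it. In C3 the C/EBP match TTGCGAAA begins 45 bases before the start. Among 32851 promoters of this length, 28.3% hold GAGGAA and 10.8% hold TTGCNNAA on either strand, so each match is common. No match to the interferon element (GAAA, any 2 bases, GAAA), the STAT element TTCNNNGAA or the kappaB element (GGGA, any 1 base, TTTCC), each searched on both strands, was found in the 5 windows, against 3.44%, 8.3% and 0.411% of all promoters. Of the windows not shown, those of C3ar1 and C5ar1 hold none of the 5 motifs.

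The libraries held between 10851519 and 14302207 estimated counts each. Markers of the labelled tissue were present: oocyte (Zp2, Gdf9), granulosa (Inha) and theca markers (Cyp11a1) were measured at every age. The summed oocyte list of 9 genes ran from 250.1 to 391 CPM at 3 months, 15.6 to 115 at 9 months and 49.3 to 118 at 12 months. Other tissue was present too. Oviduct epithelium markers, mostly Ovgp1, summed to 1781 to 2887 CPM at 3 months, 2173 to 6349 at 9 and 2412 to 5255 at 12 months. Adipocyte markers summed to 308 to 1081, 379 to 2079 and 188 to 568 CPM at these ages. The part of these tissues in the members' levels was not tested. Several libraries stood apart. The 9-month replicates 1 to 4 held 44, 109, 362 and 16.2 CPM of Alb, the liver's albumin mRNA, while no other library passed 5.12 CPM. Cr2, a complement receptor of B and follicular dendritic cells, was at 6.15 and 10.7 CPM in 9-month replicates 1 and 2 and 12.5 in 12-month replicate 2, against at most 0.837 elsewhere. Some counts, ratios and correlations that include these libraries are also given without them. Marker sums and counts, counts of genes without overlap, trend calls of the members and the ratios of the C1q chains are given only with them.

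The levels of the members per length of all annotated exons (CPM per kb, 3 months, mean ± SD, n = 5) put C3 first at 68.1 ± 13.1. C1qb followed at 59.3 ± 11.1 CPM per kb and C1qa at 45.0 ± 6.35. C1qc had 24.0 ± 3.49, C2 19.2 ± 1.06, C4b 7.24 ± 0.928, Cfb 4.81 ± 0.691, C3ar1 3.99 ± 0.891 and C5ar1 2.32 ± 0.604 CPM per kb. In that order the libraries of C3 and C1qb overlapped, as did those of C1qb and C1qa, of C1qc and C2, of Cfb and C3ar1 and of C3ar1 and C5ar1. At 12 months the level of C3 was 177 ± 65.8 CPM per kb (n = 4), of C1qb 92.4 ± 25.7 and of C2 18.5 ± 2.74. The order of the genes by mean was the same at 12 months. It depends on the exons annotated by GENCODE, which add up to 1931 bases in C1qc and 1040 in C1qa. The counts themselves use RefSeq gene models. Before division by length, the 3-month means of C1qc and C1qa were 46.3 and 46.8 CPM.

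**Figure D1:**
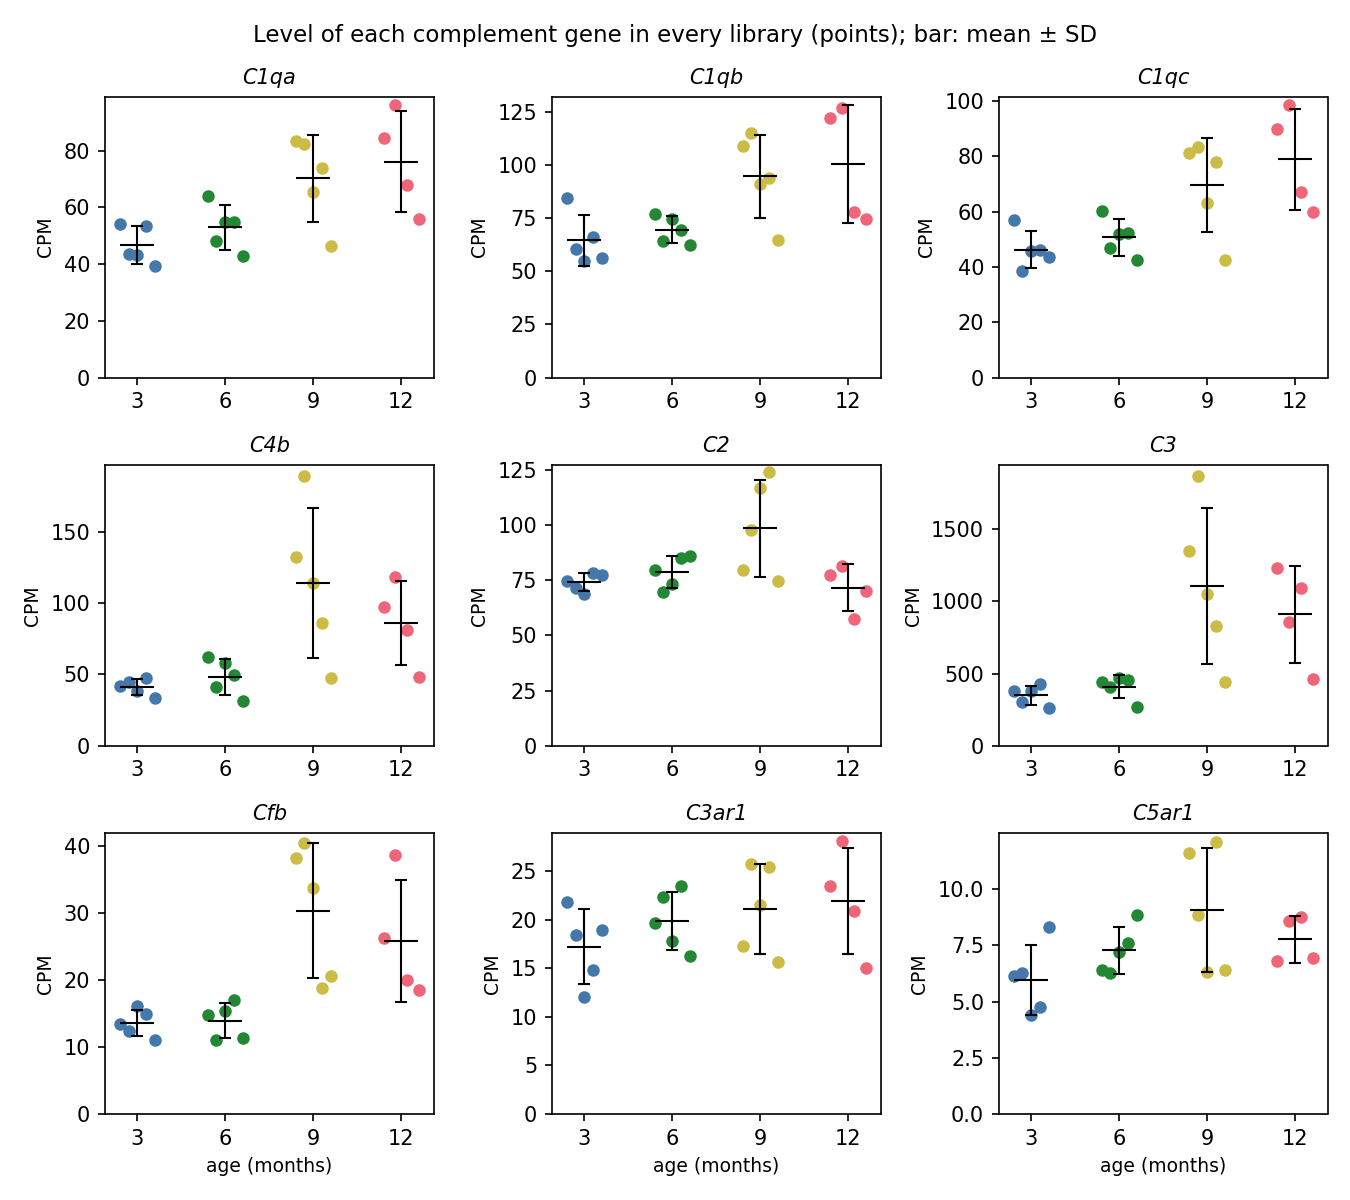
Level of each of the 9 complement genes in every library (CPM, y axis, each panel from 0) at 3, 6, 9 and 12 months (x axis). Points are libraries and bars are the mean ± SD (n = 5, 5, 5 and 4); C3, C4b and Cfb stand higher and spread more at 9 and 12 months, while C2 at 12 months lies near its 3-month level.

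The comparison of 12 with 3 months asks what had changed at the oldest age. Of the 9 members, 6 rose, none fell and 3 did not pass the test (edgeR quasi-likelihood test, Benjamini-Hochberg adjusted p under 0.05), where 10.9% of all 15518 genes rose and 11.5% fell. The median log2 change was 0.70 over the 9 members and 0.02 over all genes tested. The members and lists were chosen with earlier results of these data known. Setting their counts and medians beside those of all genes, here and below, is therefore a description and no test of the set. The rising members were the 3 C1q chains, C4b, Cfb and C3, and those that did not pass were C2 and the receptors C3ar1 and C5ar1. In 5 members (C1qa, C1qc, C4b, Cfb and C3) every 12-month library was above every 3-month library, which held for 6.72% of all genes. Whether more expressing cells or more RNA per cell lay behind any of these levels cannot be told apart in bulk tissue.

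The 3 C1q chains moved together. C1qa, the A chain, was at 54.2, 43.5, 43.3, 53.4 and 39.5 CPM in the 5 libraries of 3 months and at 84.4, 96.3, 68.0 and 56.1 in the 4 of 12 months. At 6 months it was at 63.9, 48.1, 54.9, 55.0 and 43.0 CPM, and at 9 months at 83.5, 82.5, 65.3, 73.8 and 46.3. The youngest and oldest ages did not overlap, whereas 9-month replicate 5 lay inside the 3-month range. The log2 change from 3 to 12 months was 0.70 ± 0.17 (SE), adjusted p = 0.0085 by edgeR, and from 3 to 9 months 0.59 ± 0.16, adjusted p = 0.0143 by edgeR. C1qc, the C chain, rose by 0.77 ± 0.18 on the log2 scale at 12 months (adjusted p = 0.00661 by edgeR) and by 0.59 ± 0.17 at 9 months (adjusted p = 0.0176 by edgeR), with means of 46.3 ± 6.74 CPM at 3 months (SD, n = 5) and 78.9 ± 18.3 at 12 months (SD, n = 4). C1qb, the B chain, was at 84.7, 60.6, 55.0, 66.2 and 56.3 CPM at 3 months and at 122, 127, 78.1 and 74.7 at 12 months. Here 2 of the 4 oldest libraries lay below the highest 3-month library. Its log2 change was 0.64 ± 0.18 with adjusted p = 0.0166 by edgeR. Without 12-month replicate 1 or replicate 2 that p became 0.0565 and 0.0561, so this call rested on both libraries.

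The chains kept a narrow ratio to one another. C1qb stood at 1.15 to 1.56 times the CPM of C1qa over all 19 libraries, and C1qc at 0.865 to 1.11 times. The ratio of C1qb to C1qa differed by -0.07 (log2) between 12 and 3 months (exact permutation test of libraries, two-sided, p = 0.46) and that of C1qc to C1qa by 0.07 (exact permutation p = 0.437). Across the 19 libraries the log2 CPM of C1qa had a Pearson r of 0.96 with that of C1qb and 0.97 with that of C1qc, a description that also takes in their shared libraries and age. Without the Alb libraries these r were 0.95 and 0.96, and without the Cr2 libraries 0.93 and 0.95. By the same measure the genes nearest to C1qa after the other chains were Laptm5 (r = 0.943), to C1qb Lilrb3 (0.952) and to C1qc Fermt3 (0.942). For deviations from the age means, these r were 0.872, 0.923 and 0.92.

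Part of the macrophage markers rose at the ages at which C1q rose. Of 22 tested markers of a list of 23, 11 rose and none fell from 3 to 12 months, and the others did not pass. Over all genes 10.9% rose and 11.5% fell. From 3 to 9 months 14 rose and none fell, where 11.3% of all genes rose and 13.6% fell. The summed level of the list ran from 669 to 1184 CPM at 3 months, 839 to 1048 at 6, 949 to 1879 at 9 and 1067 to 1875 at 12 months. No marker of the list was at 0 in every library. Lyz2, the lysozyme of macrophages and neutrophils, had a median of 220.1 CPM at 3 months and 392 at 12 months. Neutrophil markers summed to 229 to 523 CPM at 3 months and 491 to 911 at 12 months. Most of that sum was 1 gene, Ltf, at 213 to 505 and 473 to 895 CPM. The next 2 by level, Cxcr2 and Mmp8, had medians of 7.14 and 4.13 CPM at 3 months and 7.09 and 6.49 at 12 months. Of 11 neutrophil markers 5 were tested and 1 rose. The part of these cells in the C1q result was not tested.

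**Figure D2:**
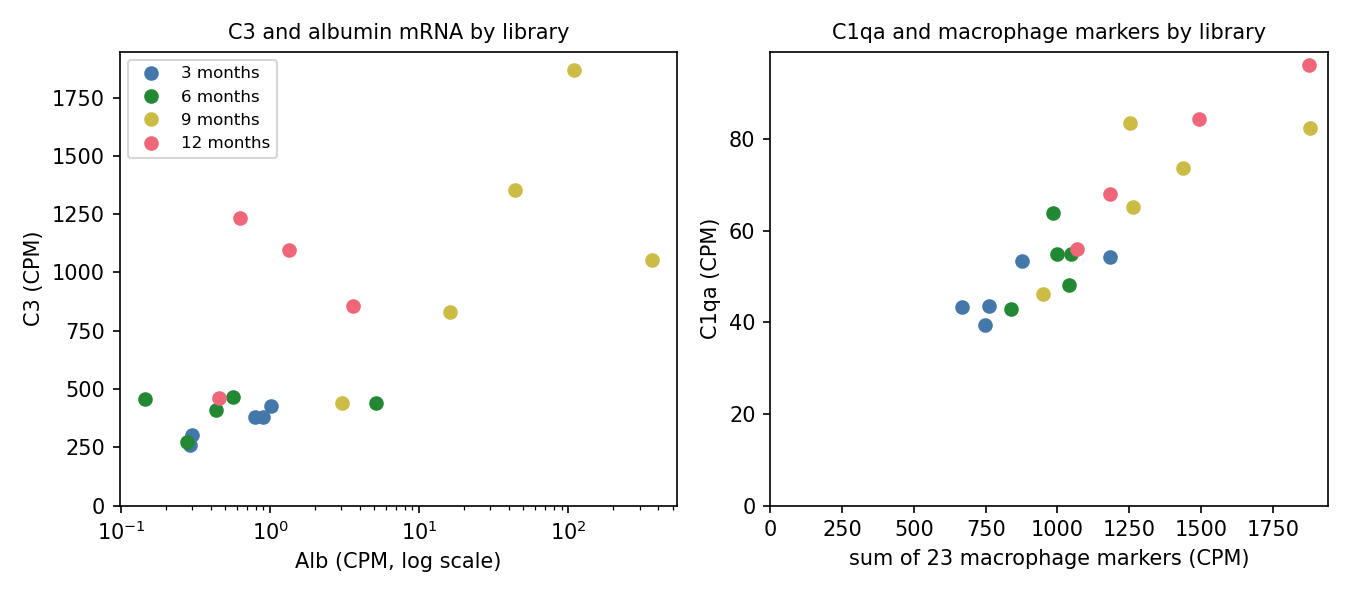
Left, C3 (CPM, y axis) against albumin mRNA Alb (CPM, log x axis) in each of the 19 libraries; right, C1qa (CPM) against the sum of 23 macrophage markers (CPM). Points are libraries coloured by age, and high C1qa accompanies high macrophage marker sums. In 12-month replicates 1 to 4, C3 is at 1232, 858, 1095 and 459.8 CPM with Alb at 0.625, 3.6, 1.34 and 0.453. In 9-month replicates 1 to 5, C3 is at 1353, 1867, 1052, 830.5 and 441 CPM with Alb at 44, 109, 362, 16.2 and 3.04. The part of liver transcripts in C3 was not tested.

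Of the convertase genes, C4b and Cfb rose at 9 and at 12 months, while C2 passed at 9 months and not at 12. C4b, the classical component that C1s cleaves, was at 42.0, 44.4, 38.5, 47.4 and 33.7 CPM at 3 months, at 132, 189, 114, 86.3 and 47.6 at 9 months and at 97.1, 118, 81.4 and 48.4 at 12 months. The 9- and 12-month libraries were all above the 3-month ones, the lowest by a narrow margin. Its log2 change was 1.06 ± 0.31 at 12 months (adjusted p = 0.0227 by edgeR) and 1.46 ± 0.30 at 9 months (adjusted p = 0.0023 by edgeR). At 12 months the call was lost when 3-month replicate 5 (adjusted p = 0.0534 by edgeR), 12-month replicate 1 (0.0527) or 12-month replicate 2 (0.0712) was left out.

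Cfb, factor B of the alternative pathway, was at 13.4, 12.4, 16.1, 14.9 and 11.1 CPM at 3 months, at 38.2, 40.4, 33.6, 18.8 and 20.5 at 9 months and at 26.2, 38.6, 20 and 18.5 at 12 months. The older libraries again lay above all 3-month ones. Its log2 change was 0.93 ± 0.24 at 12 months (adjusted p = 0.0115 by edgeR) and 1.16 ± 0.23 at 9 months (adjusted p = 0.0016 by edgeR).

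C2, the neighbour of Cfb and partner of C4 in the classical convertase, was at 74.7, 71.4, 68.8, 78.5 and 77.6 CPM at 3 months and at 77.2, 81.6, 57.3 and 70.2 at 12 months. The groups overlapped fully, and the log2 difference was -0.05 with a 95% interval of -0.33 to 0.22. At 9 months C2 was at 79.6, 97.6, 117, 124 and 74.7 CPM, a log2 change of 0.41 ± 0.12 (adjusted p = 0.0208 by edgeR). That call was lost without 9-month replicate 3 (adjusted p = 0.0684 by edgeR) or replicate 4 (0.0544). From 9 to 12 months the log2 difference of C2 was -0.46 ± 0.13, adjusted p = 0.147 by edgeR. It passed with DESeq2 (adjusted p = 0.0453) and without 9-month replicate 5 (edgeR adjusted p = 0.0258).

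The ratio of C2 to Cfb was 5.57 ± 0.965 at 3 months (SD, n = 5) and 2.93 ± 0.686 at 12 months (SD, n = 4), and no 12-month library reached the lowest 3-month ratio of 4.28. The log2 difference of the ratio was -0.94 (exact permutation test of libraries, two-sided, p = 0.00794, the smallest 4 against 5 libraries allow). Adjusted over the 10 ratio tests run, that p was 0.0794 and did not pass. At 9 months the difference was -0.72 (exact permutation p = 0.0635, adjusted 0.212). Without the Cr2 libraries the differences were -0.79 at 12 months (exact permutation p = 0.0179, unadjusted, the smallest 3 against 5 libraries allow) and -0.33 at 9 months (exact p = 0.286). The 12-month value uses no Alb library, and the 1 library of 9 months left without them gave -0.60. The pairs of members in these tests were chosen after their values were seen.

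**Figure D3:**
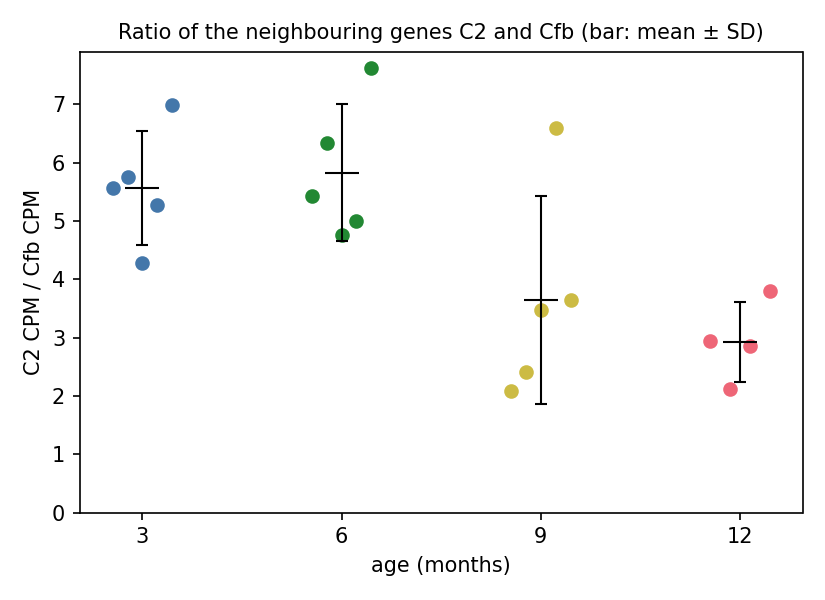
Ratio of C2 CPM to Cfb CPM (y axis) in each library at each age (x axis, months). Points are libraries and bars the mean ± SD; the mean is 5.57 at 3 months and 2.93 at 12 months, and the 12-month libraries lie between 2.12 and 3.79.

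C3, the central component, had the largest log2 changes of the 9 members at 9 and 12 months. It was at 382, 302, 379.5, 427 and 260.4 CPM at 3 months and at 442, 409.8, 467, 458 and 272 at 6 months. At 9 months it was at 1353, 1867, 1052, 830.5 and 441 CPM, and at 12 months at 1232, 858, 1095 and 459.8. All libraries of 9 and 12 months exceeded the highest 3-month library, which 3 of the 5 libraries of 6 months did. Of the older ones, 9-month replicate 5 and 12-month replicate 4 were above it by little. The log2 change was 1.38 ± 0.33 at 12 months (adjusted p = 0.00838 by edgeR) and 1.66 ± 0.32 at 9 months (adjusted p = 0.00155 by edgeR), and it stayed between 1.20 and 1.59 at 12 months over the 19 fits that left out 1 library each. The ratio of C3 to C4b ran from 6.81 to 13.5, its log2 difference between 12 and 3 months was 0.31 (exact permutation p = 0.19; 0.48 and exact p = 0.0357, unadjusted, without the Cr2 libraries), and their log2 CPM had a Pearson r of 0.96 over the 19 libraries, again a description, and 0.90 for deviations from the age means. Without the Alb libraries that r was 0.91 (15 libraries), and without the Cr2 libraries 0.94 (16 libraries). After C4b, the genes nearest to C3 were Cryz (r = 0.948) and Cilp (0.946), and after C3, those nearest to C4b were Ccr2 (0.933) and Lrrn4cl (0.931). Nearest to Cfb were Tmem173 (0.932), C4b (0.923) and H2-D1 (0.922). The nearest genes to C2 were Itm2a (0.878), Akr1b8 (0.877) and Serinc3 (0.868). For deviations these r were 0.879 and 0.895 for C3, 0.901 and 0.85 for C4b, 0.844, 0.807 and 0.898 for Cfb, and 0.857, 0.824 and 0.771 for C2.

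Neither receptor passed the test at 12 months, and C5ar1 passed at 9 months. C3ar1, which binds C3a, was at 21.8, 18.4, 12.0, 14.8 and 18.9 CPM at 3 months and at 23.5, 28.1, 20.9 and 15 at 12 months, so the ages overlapped. Its log2 difference was 0.35 (95% interval -0.06 to 0.75; adjusted p = 0.206 by edgeR). C5ar1, which binds C5a, was at 6.15, 6.28, 4.38, 4.74 and 8.30 CPM at 3 months, at 11.6, 8.86, 6.31, 12.1 and 6.39 at 9 months and at 6.80, 8.57, 8.75 and 6.95 at 12 months. From 3 to 12 months its log2 difference was 0.38 (95% interval -0.07 to 0.83; adjusted p = 0.217 by edgeR). These intervals include both no change and changes as large as that of C1qb. C5ar1 passed at 9 months (log2 change 0.60 ± 0.20, adjusted p = 0.0386 by edgeR), but not without any one of 7 libraries: 3-month replicates 1 to 4 (0.0568, 0.0574, 0.0921 and 0.0799) and 9-month replicates 1, 2 and 4 (0.086, 0.0575 and 0.1). The nearest genes to C3ar1 were Tlr13 (r = 0.924), Mpeg1 (0.86) and Slc11a1 (0.84), and those to C5ar1 Vcam1 (0.805), Icam1 (0.766) and Htr1b (0.759). For deviations they were 0.942, 0.847 and 0.911 for C3ar1, and 0.68, 0.705 and 0.611 for C5ar1. Over all nearest genes of the 9 members, r ran from 0.762 to 0.953 without the Cr2 libraries and from 0.587 (C2 with Serinc3) to 0.964 without the Alb libraries.

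**Figure D4:**
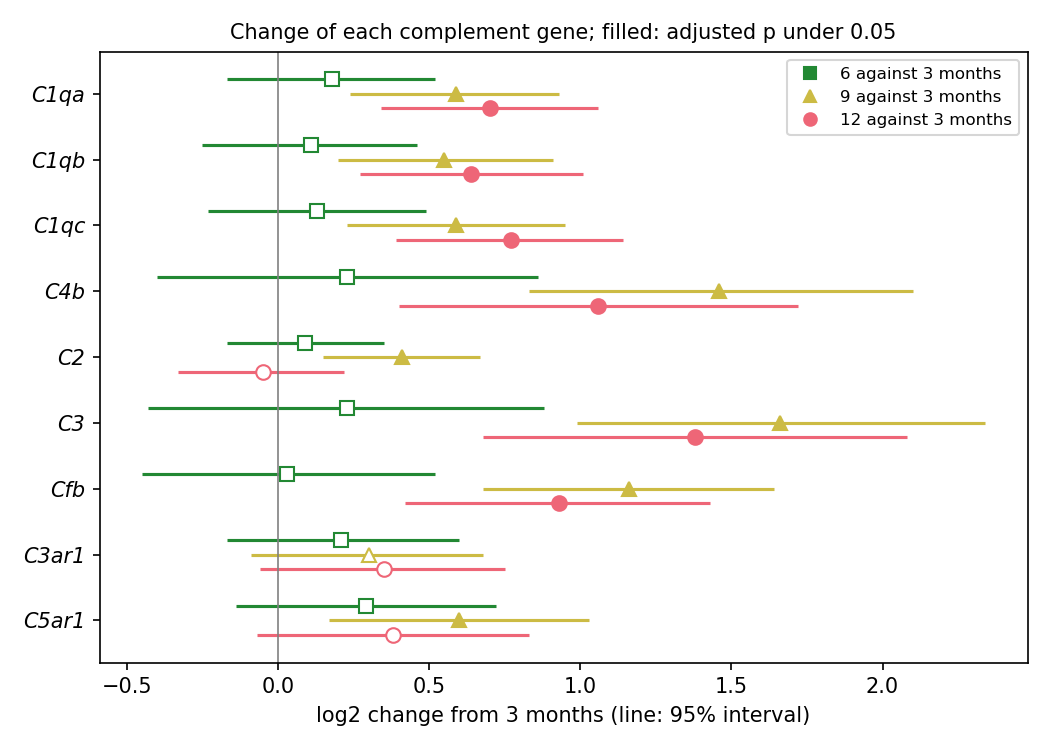
Log2 change of each gene from 3 months (x axis) with its 95% interval, for 6 months (squares), 9 months (triangles) and 12 months (circles). Filled symbols passed adjusted p under 0.05: none at 6 months, 8 at 9 months and 6 at 12 months.

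At 9 months 8 of the 9 members rose and none fell, where 11.3% of all genes rose and 13.6% fell, with a median log2 change of 0.59 over the members and 0.01 over all genes. Only C3ar1 did not pass (log2 difference 0.30, adjusted p = 0.252 by edgeR). In C4b, Cfb and C3 every 9-month library was above every 3-month one, as in 5.52% of all genes. C1qb (0.55 ± 0.17, adjusted p = 0.0232 by edgeR) lost its call without 3-month replicate 3 (0.0543), 3-month replicate 5 (0.0539) or 9-month replicate 2 (0.0616). This age holds the libraries with albumin mRNA: 13 of 16 tested hepatocyte markers rose from 3 to 9 months and 0 of 16 from 3 to 12 months, and their summed level ran from 199 to 1253 CPM at 9 months against 146 to 325 at 3 months and 101 to 174 at 12 months. No hepatocyte marker was at 0 in every library, and Cyp2e1 and Serpina1e already had medians of 106 and 80.2 CPM at 3 months.

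Without the 4 libraries over 10 CPM of Alb, 9 months is left with replicate 5 alone, whose variation was taken to be like that of the other libraries. With 1 library of that age the fit cannot show which members pass at 9 months. The log2 difference of C3 was then 0.33, while those of C1qa and C1qc turned to -0.01 and -0.12. The 4 libraries left out are all of 9 months, so 12 against 3 months compared the same libraries as before. Only values shared over the whole fit, such as the estimate of spread, could change there. All 6 calls at 12 months held, with C3 at 1.37, which is no test of the Alb libraries. Without 9-month replicate 3 alone, the library highest in hepatocyte markers, 7 members passed at 9 months. Without the 3 libraries over 5 CPM of Cr2, 4 members (C2, C4b, Cfb and C3) passed at 9 months and 6 at 12 months. The C1q chains C1qa, C1qb and C1qc then had log2 differences of 0.42, 0.38 and 0.42 at 9 months (adjusted p = 0.0885, 0.137 and 0.111 by edgeR), and C5ar1 one of 0.485 (0.166). Of the 12-month libraries this fit left out only replicate 2. Without that library alone, C1qb and C4b did not pass at 12 months (adjusted p = 0.0561 and 0.0712 by edgeR). The fits differ in 9-month replicates 1 and 2, which enter the shared estimate of spread. The 6 calls therefore do not show that the 12-month result is free of the Cr2 libraries. B cell and lymph node markers summed to 68.7 to 84.2 CPM at 3 months, 85.1 to 268 at 9 months and 101 to 376 at 12 months, and 7 of 9 tested rose at both later ages. Their sums were 246, 268 and 376 CPM in the Cr2 libraries, and 85.1 to 119 CPM in the other libraries of 9 and 12 months. These marker counts were not repeated without the Cr2 libraries. Stromal fibroblast markers summed to 2359.6 to 2661 CPM at 3 months, 3237 to 5350.0 at 9 months (6 of 8 rose, 1 fell) and 2646 to 3745 at 12 months (4 of 8 rose, 1 fell). Endothelial markers summed to 338 to 376 CPM at 3 months, 486 to 553 at 9 months (8 of 8 rose) and 421 to 478 at 12 months (4 of 8 rose). Of 5 tested mast cell markers 4 rose at both ages, and their list summed to 64.8 to 101 CPM at 3 months, 89.3 to 157 at 9 months and 94.5 to 122 at 12 months. Surface epithelium markers summed to 533 to 730.1 CPM at 3 months, 597 to 1136 at 9 months (5 of 8 rose) and 643 to 1065 at 12 months (3 of 8 rose). T and NK cell markers summed to 10.1 to 15.2 CPM at 3 months, 18.1 to 88.1 at 9 months (4 of 10 rose) and 15.1 to 151 at 12 months (8 of 10 rose). All 9 oocyte markers fell at 9 and at 12 months. At each of these ages 3 of 6 theca and interstitial markers and 2 of 8 granulosa markers also fell, and none rose. The part of these cells in the members' changes was not tested.

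At 6 months none of the 9 members passed against 3 months by edgeR, DESeq2 or limma, and none had an unadjusted p under 0.05. Over all genes 0.0129% rose and 0.00644% fell. The log2 differences ran from 0.03 for Cfb to 0.29 for C5ar1, with a median of 0.18. The 95% interval of C3 reached from -0.43 to 0.88, so a rise up to that bound lies within it. C4b, at 31.2 to 62.5 CPM in the 6-month libraries, overlapped its 3-month range, as did Cfb at 11 to 17 CPM.

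From 9 to 12 months none of the 9 members passed by edgeR, and of all genes 0% rose and 0% fell. C2 alone had an unadjusted p under 0.05. The log2 differences of C3 (-0.28, 95% interval -0.98 to 0.42) and C4b (-0.40, -1.06 to 0.25) do not show that the older ages are alike.

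Along a linear trend over all 4 ages, given as the log2 change over 9 months, the same 6 genes as at 12 months rose and none fell, where 14.7% of all genes rose and 14.8% fell. C3 rose by 1.79 ± 0.39 (adjusted p = 0.00278 by edgeR), C4b by 1.45 ± 0.37 (0.00736) and Cfb by 1.24 ± 0.29 (0.00384). The C1q chains rose by 0.77, 0.72 and 0.83 for C1qa, C1qb and C1qc. C2 (0.11), C3ar1 (0.35) and C5ar1 (0.48) did not pass. C3ar1 passed without 12-month replicate 4 (0.46, adjusted p = 0.0472 by edgeR). The comparisons with 3 months share their 3-month libraries, and the trend uses all of them, so their counts are not independent.

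The rest of the pathway was followed in a list of 44 further complement genes, 32 of which were tested. From 3 to 12 months 5 of the 32 rose and 5 fell, where 10.9% of all genes rose and 11.5% fell. The median log2 change was 0.15 against 0.02 over all genes, and 15 of the 32 had an unadjusted p under 0.05 by edgeR. Among recognition molecules, Fcna, a lectin-pathway ficolin, rose by 1.33 ± 0.44 (adjusted p = 0.0386 by edgeR), and Mbl2, a mannose-binding lectin, fell by 2.20 on the log2 scale, from a mean of 1.61 to 0.343 CPM (adjusted p = 0.0272 by edgeR). Cfp, properdin, which stabilises the alternative convertase that factor B forms, rose by 0.56 ± 0.19 (adjusted p = 0.0402 by edgeR). Of the 4 tested terminal components none rose, while C7 fell by 1.31 and C6 by 0.60 on the log2 scale (adjusted p = 0.0132 and 0.0471 by edgeR). Among 13 tested regulators 1 rose and 2 fell. Cfi, factor I, which cleaves C3b, rose by 0.94 ± 0.23 (adjusted p = 0.00893 by edgeR), and Csmd1, a membrane regulator, fell by 0.56 (adjusted p = 0.0307 by edgeR). The receptor chains Itgax and Itgb2, subunits of the C3 fragment receptor CR4, rose by 1.81 ± 0.34 and 1.40 ± 0.31 (adjusted p = 0.00246 and 0.0052 by edgeR). From 3 to 9 months 11 of the 32 rose and 1 fell, where 11.3% of all genes rose and 13.6% fell. Along the trend 8 rose and 3 fell, where 14.7% of all genes rose and 14.8% fell. At 6 against 3 and 12 against 9 months none passed by edgeR (2 and 12 had an unadjusted p under 0.05). Cr2 rose along the trend by 3.99 ± 1.19 (adjusted p = 0.0167 by edgeR), with its high values in the 3 libraries named above. Without them its log2 difference was 0.75 (adjusted p = 0.38 by edgeR). Without the Cr2 libraries 8 rose and 0 fell at 9 months, and 5 rose and 5 fell at 12 months, where Cfp no longer passed (0.36, adjusted p = 0.0931 by edgeR). Without the Alb libraries 6 rose and 5 fell at 12 months, with the same libraries of 3 and 12 months compared as before. For 9 months, with 1 library left, the median log2 difference was -0.01. Along the trend 7 rose and 3 fell without the Cr2 libraries, and 7 rose and 6 fell without the Alb libraries. Both of these fits tested 33 of the 44 genes, and shares over all genes are not given for them.

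**Figure D5:**
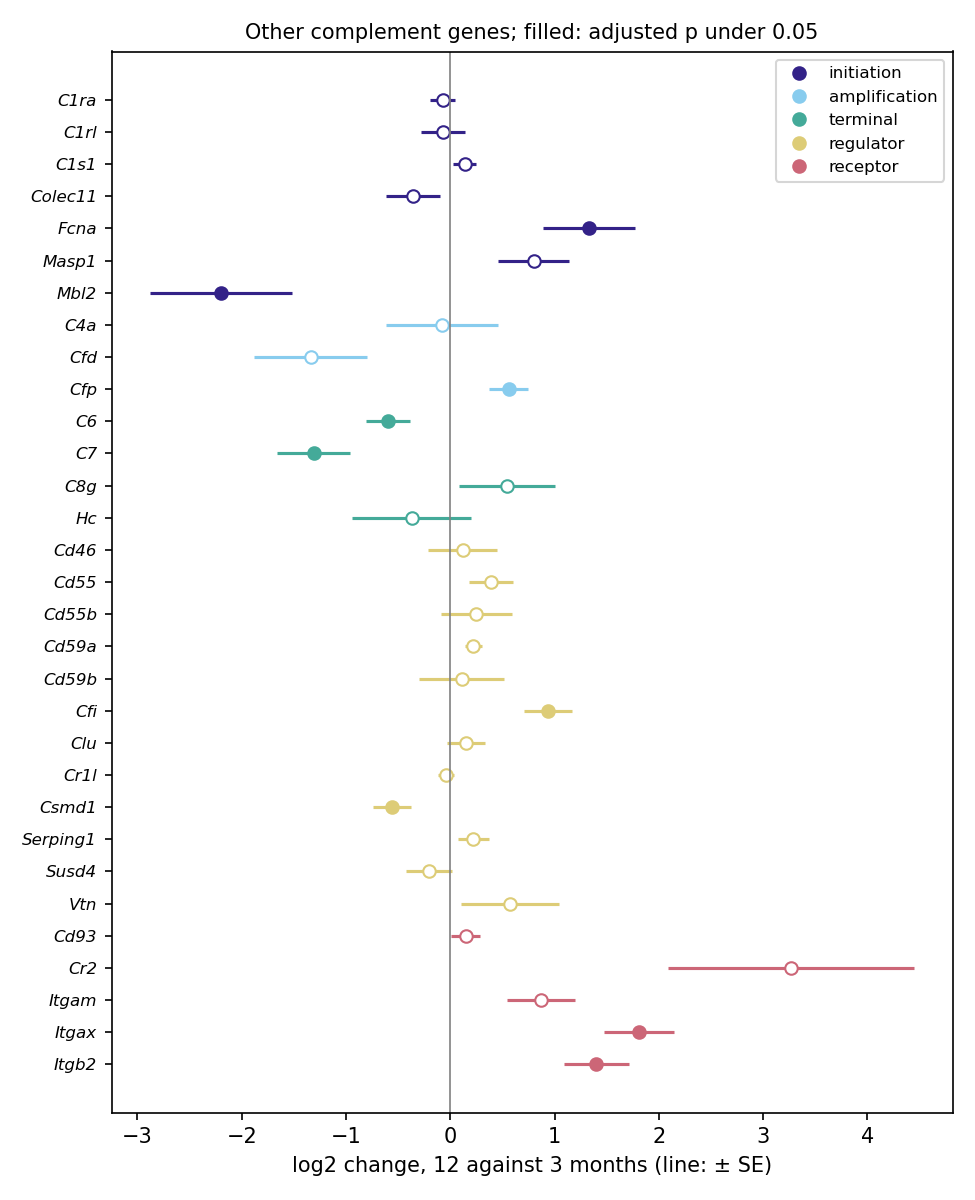
Log2 change from 3 to 12 months (x axis, line ± SE) of tested complement genes outside the 9 members, one per row and coloured by role, with 1 gene not shown. Filled points passed adjusted p under 0.05: those that rose include Itgax and Itgb2, and those that fell include C7 and Mbl2.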

How the data were processed

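RNA of whole ovaries from female C57BL/6 mice was sequenced from libraries that keep the strand, per the labels' protocols. For the alignment and counting, and whether strand was used in counting, the tools were not given in the sources used here. The file headers name RefSeq as the gene models, and mm10 is the build that the submitters' processing notes name. The authors deposited estimated counts for 36172 genes, and log2 values set relative to the 3-month median. Each table has 1 further column matching no sample, which was not used. Age groups come from the age label, and replicate numbers only name libraries. Estimated counts were rounded, filtered with edgeR 4.0.16 (minimum count 10, minimum total 15), scaled by TMM and tested in R 4.3.3 with its quasi-likelihood test over all 19 libraries, with Benjamini-Hochberg values over 15518 genes, threshold 0.05. The linear trend is the change over 9 months. CPM values use TMM library sizes, and intervals are 95% intervals of the fit. CPM per kb divides by the union of exons annotated by GENCODE, which can differ from the RefSeq models used for the counts. The steps were tested on simulated data. Alternatives were DESeq2 1.42.0, limma 3.58.1 on the counts and on the deposited log2 values, other scaling and filters, only the ages compared, a threshold of 0.01, leaving out each library, and leaving out libraries by Cr2 or hepatocyte markers. Leaving out the libraries over 10 CPM of Alb, and the ratio tests, were added after the data were seen, as were the ratios, correlations and counts of other complement genes without the Alb or Cr2 libraries. The text names all 9 members, the other complement genes with the smallest p that passed, up to 6 in each direction, the 3 genes with the highest r of log2 CPM (prior count 2) per member, and at most 3 markers a list by mean CPM. The members and lists were chosen with earlier results of these data known. With C2 and Cfb adjacent, and C4b near-identical to C4a, their counts depend on how reads were assigned. For 1 further complement gene, the values are not reported here, though it is in the counts.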

Additional observations from a re-analysis of the deposited data

How the results depend on the processing

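Of 1341 refits of the 45 member results, 1278 kept direction and side of the threshold, 38 lost a call, 3 gained one and 22 turned direction, 2 of them for results that had passed. At a threshold of 0.01, members passing fell to 3 at 9 against 3 months and 3 at 12 against 3 months, and genes passing to 0, 1872, 1354 and 2349 at 6, 9 and 12 against 3 months and along the trend (3, 3872, 3475 and 4576 at 0.05). Genes passing at 6 against 3 months were 34 with only the ages compared, 47 with DESeq2, 182 with limma-voom and 8 without the Cr2 libraries. At 12 against 9 months DESeq2 passed 252 genes and 1 member (C2), against 0 and 0. Leaving out 1 library gave 0 to 5 genes at 6 against 3 months, 0 to 278 at 12 against 9 (278 without 9-month replicate 5), 2124 to 3806 at 12 against 3 (lowest without 12-month replicate 3), and 0 to 1 members at 12 against 9 months. It also moved log2 differences that had not passed across 0: C2 at 12 against 3 months (-0.120 to 0.044), Cfb at 6 against 3 (-0.054 to 0.104), and C1qa (-0.031 to 0.238), C1qb (-0.063 to 0.203) and C3ar1 (-0.107 to 0.195) at 12 against 9. Without the Cr2 libraries 4 members passed at 9 months, and at 12 against 9 months C3 was at 0.243 and C3ar1 at -0.090. Without the libraries over 10 CPM of Alb, chosen after seeing the data, 9 months was left with 1 library. At 9 against 3 months C1qa was then at -0.013, C1qc at -0.117 and C3ar1 at -0.137. At 12 against 9 months C4b was then at 0.845, Cfb at 0.321, C3 at 1.037 and C5ar1 at 0.273, and C2 along the trend at -0.072. That fit has fewer libraries, and beyond this the cause was not tested. The ages were compared as separate groups, and the labels give no pairing between them. Counts of the lowest member, C5ar1, ran from 61 to 155 per library, which limits its precision.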
